A study of Homo sapiens with 18 samples.

Results

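Desmosome genes are described here across 6 groups of cultured human cells. The 10 members were found by their symbols in the deposited count tables, out of 40916 symbols listed, and all 10 had a row in each library. They are the desmogleins DSG1, DSG2 and DSG3, the desmocollins DSC2 and DSC3, the plaque linker DSP, and the armadillo proteins JUP, PKP1, PKP2 and PKP3.

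Polyadenylated RNA was sequenced from MCF10A cells, from HCT116 cells, and from a culture of both. MCF10A, an immortalised mammary epithelial line that is not transformed, expressed H2B-GFP. HCT116, from a colorectal carcinoma, carried no label and was described as p53-null. Each culture was left without irradiation (NIR) or received 10 Gy (IR), which gave 6 groups of 3 biological replicates, named here by culture and treatment (MCF10A NIR, Mixed IR and so on). The mixed cultures were described as 50% of each line. The sample titles place the harvest on day 2 and the series description places it 72 h after irradiation. Each line had its own medium and none is stated for the mixed culture, so line and medium cannot be told apart in any comparison of the monocultures. Nor can mixing and medium be told apart where mixed cultures are compared with HCT116. How many clones made up either line was not stated either.

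Desmosomes are junctions that tie the intermediate filaments of neighbouring epithelial cells together. Desmogleins and desmocollins are cadherins that bind the same kinds of protein on the next cell. Inside the cell, plakoglobin (JUP) and the plakophilins (PKP1, PKP2 and PKP3) bind the cadherin tails, and desmoplakin (DSP) links them to keratin. DSG2, DSC2 and PKP2 are found in simple epithelia such as the gut, whereas DSG1, DSG3, DSC3 and PKP1 are typical of stratified epithelia.

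Library totals ranged from 25737818 to 40839835 counts. Levels are in CPM, the counts of a gene scaled to a library of 1000000, and means are followed by the SD of 3 libraries. The line labels were checked with marker lists. The 8 basal mammary markers summed to 9772 to 10383 CPM in MCF10A NIR libraries and to 769 to 921 CPM in HCT116 NIR libraries, whereas the 8 intestinal markers summed to 10.2 to 12.2 and 320 to 346 CPM. EPCAM, which other epithelia also express, made up 315 ± 13 CPM of that sum in HCT116 NIR. CDX2 was at 10.0 ± 1.1 CPM, CDHR5 at 6.14 ± 1.1 CPM and KRT20 at 1.13 ± 0.33 CPM, while CDX1 had no counts, VIL1 was at 0.177 CPM and LGALS4 and PHGR1 were below that, so 4 of the 8 were at or near 0. Fibroblast markers summed to 121 to 133 CPM in MCF10A NIR and 247 to 261 CPM in MCF10A IR, of which DCN made up 119 ± 6.7 and 240.2 ± 8.7 CPM, and COL3A1 had no counts in either group; 2 of the 3 tested rose, and their part in the MCF10A changes was not tested. In HCT116 they summed to 47.4 CPM or less, with no counts of DCN or LUM. In any library leukocyte markers summed to at most 4.05 CPM and endothelial markers to at most 3.30 CPM. Mitochondrially encoded genes took 5.10% to 5.32% of counts in MCF10A NIR and 6.06% to 6.35% in MCF10A IR, and 8.42% to 8.75% and 11.5% to 12.3% in HCT116 NIR and IR; their part in the results below was not tested. In bulk RNA, fewer cells of a type and less RNA per cell cannot be told apart.

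The desmosomal cadherins lie side by side on chromosome 18 (GRCh38): DSC3 at chr18:30989365-31042742 and DSC2 at chr18:31058840-31102421 on the minus strand, then DSG1 at chr18:31318160-31359246, DSG3 at chr18:31447741-31478702 and DSG2 at chr18:31498177-31549008 on the plus strand. The other members are single genes elsewhere: DSP at chr6:7541671-7586714 (+), JUP at chr17:41754609-41786711 (-), PKP1 at chr1:201283506-201332989 (+), PKP2 at chr12:32790755-32896777 (-) and PKP3 at chr11:392596-404908 (+). Exons of DSG1, DSG2 and DSC2 overlap the spans of antisense genes, whose own exons were not read. The antisense gene of DSG2 had 84 to 139 counts per group. The libraries were made with a stranded kit, but whether counting used strand is not stated.

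Because DSC2 fell and DSC3 rose in irradiated HCT116 and DSG3 was near absent from HCT116 NIR, the 250 bases before their start sites were read from RefSeq on GRCh38.p14, 5′ to 3′ on the gene's own strand. The window of DSG1 is shown beside DSG3 for the sequence they share. Capitals mark an E-box match (CACCTG, here on the opposite strand) in DSC2 (chr18:31102422-31102671, -), a p53-family half-site match in DSC3 (chr18:31042743-31042992, -), a p53-family half-site match followed by the shared run in DSG3 (chr18:31447491-31447740, +), and the same run in DSG1 (chr18:31317910-31318159, +).
DSC2: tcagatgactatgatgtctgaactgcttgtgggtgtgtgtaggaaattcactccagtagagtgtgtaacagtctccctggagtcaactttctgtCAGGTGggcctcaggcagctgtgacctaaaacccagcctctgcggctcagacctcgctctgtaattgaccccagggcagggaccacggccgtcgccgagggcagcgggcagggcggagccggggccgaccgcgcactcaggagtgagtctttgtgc
DSC3: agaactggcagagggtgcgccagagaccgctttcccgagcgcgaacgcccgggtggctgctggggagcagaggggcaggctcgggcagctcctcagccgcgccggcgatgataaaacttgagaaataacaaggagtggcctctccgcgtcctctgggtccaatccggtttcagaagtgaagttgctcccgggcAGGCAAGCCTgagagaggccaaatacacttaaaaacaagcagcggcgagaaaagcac
DSG3: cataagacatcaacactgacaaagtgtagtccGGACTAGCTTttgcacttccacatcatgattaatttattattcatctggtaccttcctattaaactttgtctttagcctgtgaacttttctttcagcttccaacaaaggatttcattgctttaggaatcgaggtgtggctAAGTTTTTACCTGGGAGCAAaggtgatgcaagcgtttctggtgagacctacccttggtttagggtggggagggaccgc
DSG1: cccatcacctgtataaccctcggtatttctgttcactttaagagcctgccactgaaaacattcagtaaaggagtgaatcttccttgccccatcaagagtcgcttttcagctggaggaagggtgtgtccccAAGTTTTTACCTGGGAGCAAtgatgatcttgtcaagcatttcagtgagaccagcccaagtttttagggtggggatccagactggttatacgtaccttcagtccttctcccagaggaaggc
The shared 20-base run, AAGTTTTTACCTGGGAGCAA, began 120 bases before the start of DSG1 and 78 bases before that of DSG3, and was found in 2 of 35116 RefSeq windows, those of DSG1 and DSG3. The p53-family half-site occurred in the windows of DSC3 and DSG3 alone among the 10 windows of the 8 members that had any, and in 6.63% of all windows of 300 bases. An E-box CACCTG on either strand was present in 5 of the 10 windows and in 20.6% of all, and a GC box GGGCGG in 6 of the 10 and in 45.0% of all. No member window held the AP-1 motif TGANTCA (7.71% of all windows), the TATA box TATAAA (11.5%) or the grainyhead-like motif AACCGGTT (0.134%), searched on both strands. These matches are descriptions of letters and not of binding. The window of DSG3 was 42.8% G and C and that of DSG1 48.0%, against 78.0% for DSP, 75.2% for DSG2 and a median of 58.0% over all windows.

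Without irradiation, MCF10A and HCT116 carried different sets of desmosomal cadherins. HCT116 NIR had almost no DSG3 and 5.42-fold less DSC3, and had more DSC2 and JUP. Of the 9 members that passed the filter on low counts, all 9 differed at an adjusted p under 0.05 (edgeR quasi-likelihood test, Benjamini-Hochberg), 3 higher and 6 lower in HCT116. DSG3 passed that filter only through MCF10A NIR and DSG1 only through HCT116 NIR, so their calls are not separate from the filter. Across all 16568 genes tested, 74.8% differed, 38.7% higher and 36.1% lower, so that many calls among the members is not far from the background. The median log2 difference of the members tested was -0.56, and that of all genes 0.05.

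**Figure D1:**
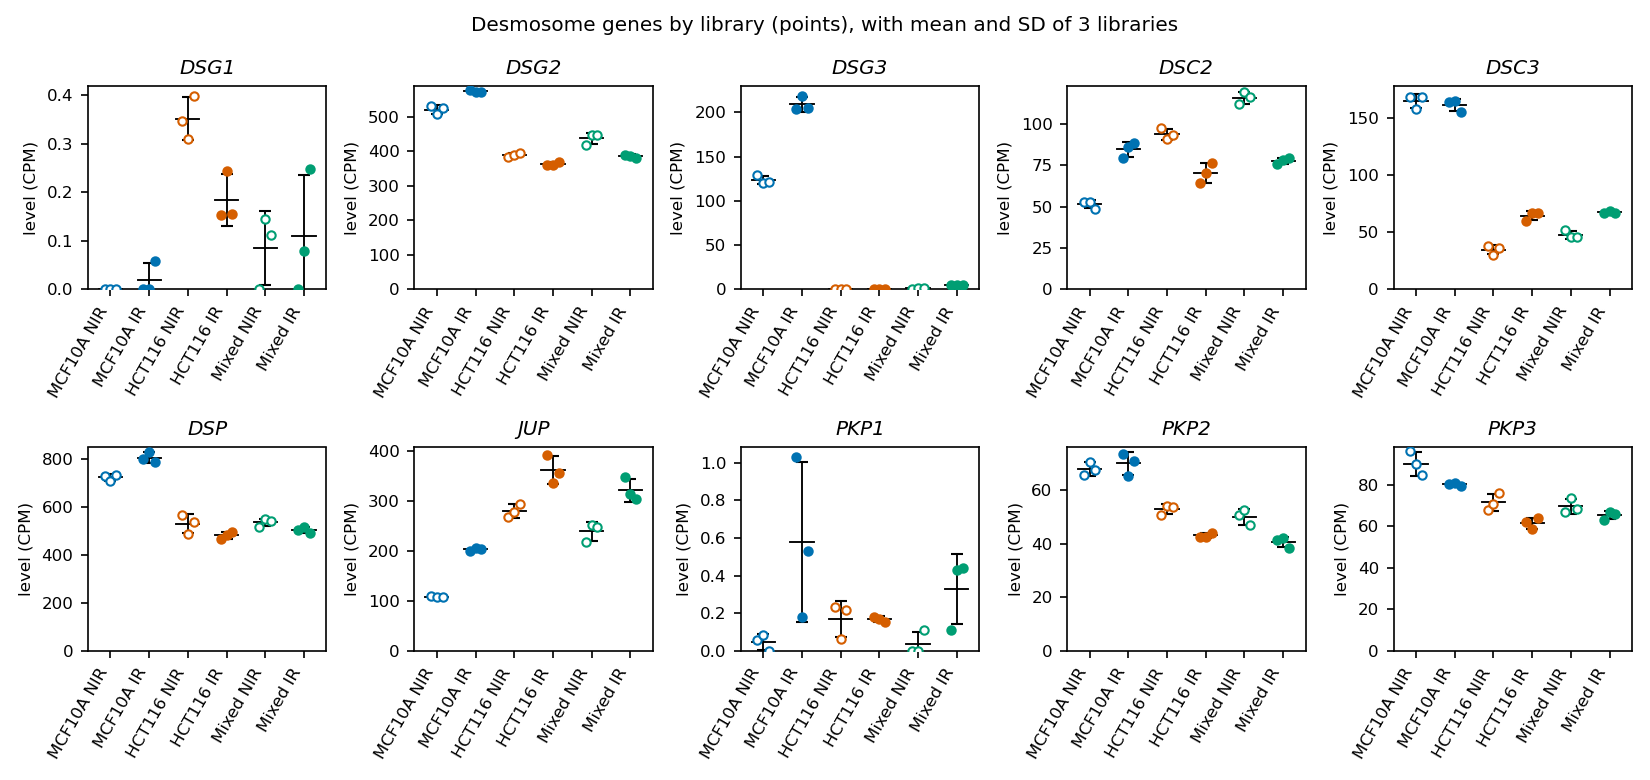
Level of each desmosome gene in CPM (vertical axis, from 0, on its own scale per gene) in the 6 groups (horizontal axis). Open points are non-irradiated and filled points irradiated libraries, and black bars give the mean and SD of 3 libraries; DSG3 stands at 124 and 209 CPM in the MCF10A groups and at 5.16 CPM or less in every other library.

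DSG3, a desmoglein of basal keratinocytes, was at 129, 121 and 121 CPM in the MCF10A NIR libraries and had 0, 2 and 0 counts in the HCT116 NIR libraries. The groups were far apart, with a ratio of 5845 and an exact 95% counting interval of 1618 to 48269 (1049 to 230880 with counts halved). DSG1, which marks more differentiated layers, went the other way at a very low level: 0 counts in all 3 MCF10A NIR libraries and 12, 10 and 11 counts in HCT116 NIR. Against a floor of 3 counts over the MCF10A NIR group the ratio was 11.5, or 5.58 with counts halved in case mates were counted one by one. The counting error of the 33 counts in HCT116 NIR is not in these ratios, so they are not lower limits.

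DSC3, the desmocollin of basal layers, was at 169, 158 and 169 CPM in MCF10A NIR and at 38.0, 30.2 and 36.8 CPM in HCT116 NIR (log2 difference -2.44, SE 0.08, edgeR adjusted p = 4.7e-15). DSC2, the more widely expressed desmocollin, was at 52.96, 52.93 and 48.6 CPM in MCF10A NIR and at 97.4, 90.5 and 93.1 CPM in HCT116 NIR (log2 difference 0.66, SE 0.06, edgeR adjusted p = 3.3e-08). Neither pair of groups overlapped. DSC3 counts were thus 3.22 ± 0.25 times those of DSC2 in MCF10A NIR and 0.373 ± 0.034 times in HCT116 NIR (SD, n = 3 each).

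DSG2, the desmoglein of simple epithelia, lay between 507 and 530 CPM in MCF10A NIR and between 383 and 395 CPM in HCT116 NIR. DSP lay between 706 and 732 CPM in MCF10A NIR and between 487 and 564 CPM in HCT116 NIR. Both were lower in HCT116 in every library, by log2 differences of -0.62 and -0.65. The plakophilins PKP2 and PKP3 were also lower in HCT116 NIR, with log2 differences of -0.56 and -0.53 (edgeR adjusted p = 5.0e-07 and 1.2e-06).

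JUP, which serves both desmosomes and adherens junctions, was at 110, 108 and 108 CPM in MCF10A NIR and at 268, 277 and 294 CPM in HCT116 NIR. It was 2.25-fold higher in HCT116 (log2 difference 1.17, SE 0.06, edgeR adjusted p = 1.4e-12). Fold differences between the lines were scaled by TMM within each comparison and are smaller than the CPM ratio for genes higher in HCT116. With TMM taken instead over all 18 libraries, CPM is multiplied by 1.09 to 1.10 in MCF10A NIR and by 0.935 to 0.961 in HCT116 NIR. With upper-quartile scaling the median log2 difference over all genes was 0.25 in place of 0.05, and all 9 members kept their direction and their call under it.

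Per kilobase of exon, DSG2 had the highest level of the 10 members in MCF10A NIR and IR, whether length was taken over all exons, the shortest or the longest GENCODE transcript. In both HCT116 groups DSG2, JUP and DSP took the first places under all 3 lengths, with JUP first over all exons and DSG2 first with its shortest transcript. The order of DSC2 against other members depends on a long exon, 12.495 kb over all exons against 4.778 kb in its shortest transcript, so desmocollin levels are compared here as count ratios between groups, in which length cancels.

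Irradiation of MCF10A was followed by higher levels of DSG3, DSC2 and JUP, each by over 1.6-fold, whereas DSC3 and PKP2 showed no difference past the threshold. Of the 8 members tested, 5 rose and 1 fell, against 55.4% of 15154 genes called in either direction, 26.2% higher and 29.2% lower. The median log2 change was 0.13 over the members tested and 0.00 over all genes.

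DSG3 rose from 129, 121 and 121 CPM to 204, 219 and 205 CPM (log2 change 0.73, SE 0.05, edgeR adjusted p = 1.4e-13). DSC2 rose from 52.96, 52.93 and 48.6 CPM to 79.5, 85.9 and 88.4 CPM (0.69, SE 0.06, edgeR adjusted p = 8.6e-11). JUP rose from 110, 108 and 108 CPM to 199, 206 and 203 CPM (0.88, SE 0.04, edgeR adjusted p = 9.5e-16). In each of these genes every irradiated library lay above every non-irradiated library.

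The log2 change of DSG2 was 0.12, with irradiated libraries at 570 to 578 CPM, and that of DSP was 0.13, with irradiated libraries at 785 to 828 CPM (edgeR adjusted p = 0.0086 and 0.0033). These changes were small, and the groups did not overlap. PKP3, a plakophilin of many epithelia, had a log2 change of -0.19, from 96.18, 90.03 and 84.60 CPM to 80.7, 81.1 and 79.7 CPM (edgeR adjusted p = 0.0043), but with upper-quartile scaling the change was -0.10 with an adjusted p of 0.11. DSC3 stayed at 165 ± 6.2 and 162 ± 5.5 CPM, with an interval of the log2 change from -0.14 to 0.04, and PKP2 at 67.8 ± 2.5 and 69.8 ± 4.1 CPM, with an interval from -0.09 to 0.14.

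PKP1, the plakophilin of stratified epithelium, was near the limit of detection. It had 2, 3 and 0 counts in MCF10A NIR and 28, 5 and 18 counts in MCF10A IR. The ratio was 11.4-fold, with a counting interval of 4.57 to 36.5 (3.47 to 121 with counts halved). All 3 irradiated libraries were above the others, and 28 and 5 counts in the same group show how uneven they were. It did not pass the filter on low counts, and without that filter its edgeR adjusted p was 0.00081. DSG1 had 2 counts in 1 MCF10A IR library and none in the other 5 MCF10A libraries.

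The same dose given to HCT116 was followed by higher DSC3 and JUP and by lower DSC2, PKP2 and PKP3. Of these, JUP and PKP3 changed in the same direction as in MCF10A. Of the 8 members tested, 2 rose and 3 fell, against 52.5% of 16857 genes called, 25.3% higher and 27.2% lower. The median log2 change was -0.17 over the members tested and 0.01 over all genes.

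DSC3 rose 1.86-fold, from 38.0, 30.2 and 36.8 CPM to 60.02, 66.87 and 67.10 CPM (log2 change 0.89, SE 0.09, edgeR adjusted p = 6.5e-09). DSC2 had a log2 change of -0.41, from 97.4, 90.5 and 93.1 CPM to 64.4, 70.4 and 76.3 CPM (SE 0.07, edgeR adjusted p = 2.7e-05). The groups did not overlap for either desmocollin. The ratio of DSC3 to DSC2 counts went from 0.373 ± 0.034 to 0.921 ± 0.037 in HCT116, and from 3.22 ± 0.25 to 1.92 ± 0.16 in MCF10A (SD, n = 3 each).

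**Figure D2:**
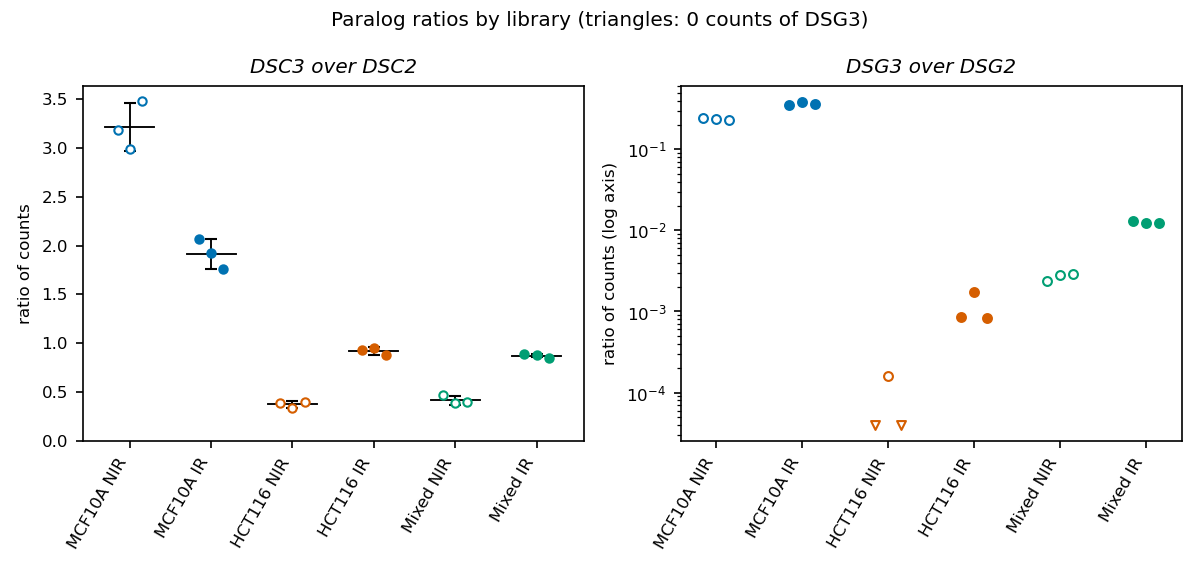
Ratio of counts within a library for DSC3 over DSC2 (left, linear axis from 0, black bars mean and SD of 3 libraries) and DSG3 over DSG2 (right, log axis, triangles mark 2 libraries with 0 counts of DSG3). Irradiated libraries (filled) lie lower than non-irradiated ones (open) in MCF10A and higher in HCT116 and mixed cultures for DSC3 over DSC2.

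JUP rose in HCT116 from 268, 277 and 294 CPM to 392, 336 and 355 CPM (log2 change 0.38, SE 0.06, edgeR adjusted p = 2.4e-05), with no overlap. PKP2, which also scaffolds DSP at the plaque, had a log2 change of -0.29, with 50.6 to 54.1 CPM before and 42.4 to 44.1 CPM after (edgeR adjusted p = 0.0018). PKP3 had a log2 change of -0.21, with 67.8 to 76.1 CPM before and 58.8 to 64.0 CPM after (edgeR adjusted p = 0.013). The call of PKP3 was lost without HCT116 NIR replicate 3 (adjusted p = 0.079) or without HCT116 IR replicate 2 (adjusted p = 0.069).

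DSG2 had a log2 change of -0.09 (interval -0.20 to 0.01, edgeR adjusted p = 0.16) and DSP of -0.13 (interval -0.25 to -0.01, edgeR adjusted p = 0.071). DSP passed the threshold without HCT116 NIR replicate 2 (adjusted p = 0.018) and without a filter on low counts (adjusted p = 0.047). DSG1 went from 12, 10 and 11 counts to 5, 10 and 4 counts, with a log2 change of -0.88 that did not pass (edgeR adjusted p = 0.27). PKP1 was at 0.170 CPM in both groups, with 16 counts in HCT116 NIR.

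DSG3 had 0, 2 and 0 counts in HCT116 NIR and 10, 26 and 8 in HCT116 IR, a 20.9-fold ratio with a counting interval of 5.45 to 178 (3.38 to 862 with counts halved). Every irradiated library had more counts than every non-irradiated one. Without the filter, which it did not pass, its edgeR adjusted p was 0.0025. The level after irradiation was still 0.200% of that in MCF10A IR. Basal mammary markers also rose in these libraries: 6 of the 7 tested were higher, and their sum went from 769 to 921 CPM to 1376 to 1604 CPM. As shares of their MCF10A IR level, KRT14 was at 0.193%, KRT17 at 0.185%, KRT5 at 0.0553% and TP63, the basal transcription factor, at 0.0249% with 4 counts. Their part in the DSG3 counts was not tested.

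**Figure D3:**
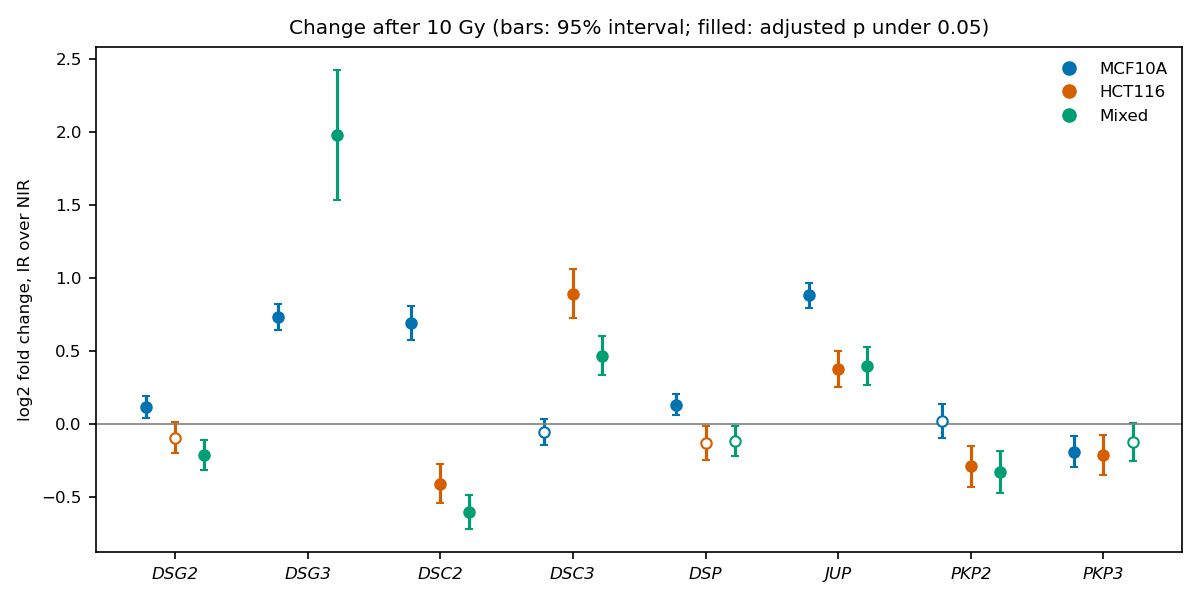
Log2 fold change of 8 desmosome genes from non-irradiated to irradiated cultures (vertical axis) in MCF10A, HCT116 and mixed cultures, with bars for the 95% interval and filled points for an adjusted p under 0.05. DSC2 lies above 0 in MCF10A (0.69) and below 0 in HCT116 (-0.41); DSG3 is drawn only where it passed the filter on low counts.

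The responses of the lines were compared directly with an interaction term. For 7 of the 9 members tested the response differed, 2 higher and 5 lower in HCT116, against 37.3% of 18179 genes, 15.4% higher and 21.9% lower; the median difference of all genes was -0.10 and that of the members -0.34. DSC2 had the lowest value among the members called, -1.18 (SE 0.09, edgeR adjusted p = 2.4e-10), and DSC3 differed by 0.87 in the other direction (SE 0.10, edgeR adjusted p = 7.7e-08). JUP rose in both lines and rose less in HCT116, by -0.58 (edgeR adjusted p = 1.7e-06). DSG2, DSP and PKP2 had differences of -0.29, -0.34 and -0.39. DSG3 had 3.33 (SE 0.68, edgeR adjusted p = 0.00035), a value that rests on 2 counts in HCT116 NIR. It did not pass the filter on low counts in the HCT116 fit and entered this one through its MCF10A libraries. PKP3 had a difference of -0.10 with an interval from -0.27 to 0.07, so no difference between the lines was shown for it.

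After irradiation all 8 members tested differed between the lines, 1 higher and 7 lower in HCT116 IR, where 74.9% of 16932 genes were called, 38.1% higher and 36.8% lower. JUP alone among them was higher in HCT116 IR (log2 difference 0.60). DSC2, higher in HCT116 without irradiation, was lower with it, at 64.4, 70.4 and 76.3 CPM against 79.5, 85.9 and 88.4 CPM in MCF10A IR (log2 difference -0.50, SE 0.06, edgeR adjusted p = 1.2e-07). DSC3 remained lower in HCT116, with a log2 difference of -1.55 against -2.44 without irradiation. DSG3 counts were 472-fold higher in MCF10A IR, with a counting interval of 351 to 650 (311 to 753 with counts halved). DSG3 passed the filter on low counts only through MCF10A IR.

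The share of MCF10A RNA was estimated as the median, over genes at 20 CPM or more in MCF10A and under 1 CPM in every HCT116 library of the same treatment, of the mixed level over the MCF10A level. It was 0.473%, 0.420% and 0.388% in Mixed NIR (143 genes) and 1.25%, 1.10% and 1.22% in Mixed IR (142 genes). This is a share of counted RNA and not of cells, and it is far under the stated 50%. The HCT116 level of these genes was not subtracted, so the share can be too high. With a minimum of 50 CPM in MCF10A and under 0.5 CPM in HCT116 the means were 0.267% and 0.992%, against 0.427% and 1.19%.

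DSG3 was measured at 1.00, 1.27 and 1.31 CPM in Mixed NIR and at 5.16, 4.70 and 4.64 CPM in Mixed IR. Both groups lay between the lines and did not overlap each other. The observed level was 2.20 ± 0.49 times that expected from both monocultures at the estimated share in Mixed NIR and 1.67 ± 0.091 times in Mixed IR (SD, n = 3 each), or 3.797 and 1.946 times with the stricter share. DSG3 stood at 0.963% and 2.31% of its MCF10A level, inside the middle range of the specific genes, whose quartiles were 0.193% and 0.998% in NIR and 0.541% and 2.35% in IR. TP63, a basal gene with 0 counts in HCT116 NIR, was at 0.882 and 1.97 CPM in the same libraries.

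Against HCT116 NIR, 3 of the 9 members tested were higher in Mixed NIR and none lower, where 2.04% of 16455 genes were called, 0.887% higher and 1.15% lower. DSG3 counts were 56.9-fold higher (119 against 2 counts, counting interval 15.4 to 476, or 9.75 to 2268 with counts halved). DSG3 passed the filter on low counts only through Mixed NIR. DSC2 was at 112, 119 and 116 CPM in Mixed NIR against 97.4, 90.5 and 93.1 CPM (log2 difference 0.32, SE 0.06, edgeR adjusted p = 0.0080). DSC3 was at 52.2, 45.6 and 46.3 CPM against 38.0, 30.2 and 36.8 CPM (0.47, SE 0.09, edgeR adjusted p = 0.0083).

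Neither desmocollin overlapped between these groups, and MCF10A RNA at the estimated share made up 0.236% of the expected DSC2 level and 1.99% of that of DSC3. Without HCT116 NIR replicate 2 the adjusted p was 0.078 for DSC2 and 0.077 for DSC3, and without Mixed NIR replicate 1 it was 0.083 for DSC3. DSG2 (log2 difference 0.18, interval 0.07 to 0.30, edgeR adjusted p = 0.13) and JUP (-0.21, interval -0.35 to -0.08, edgeR adjusted p = 0.12) did not pass. DSG2 passed with DESeq2 (adjusted p = 0.046) and with 1 fit over all 18 libraries (edgeR adjusted p = 0.0086), and JUP passed without a filter on low counts (edgeR adjusted p = 0.046). DSP, PKP2 and PKP3 had differences of 0.03, -0.06 and -0.02, with intervals of -0.09 to 0.15, -0.21 to 0.08 and -0.17 to 0.12. DSG1 had 0, 5 and 4 counts in Mixed NIR and 12, 10 and 11 in HCT116 NIR (edgeR adjusted p = 0.24).

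**Figure D4:**
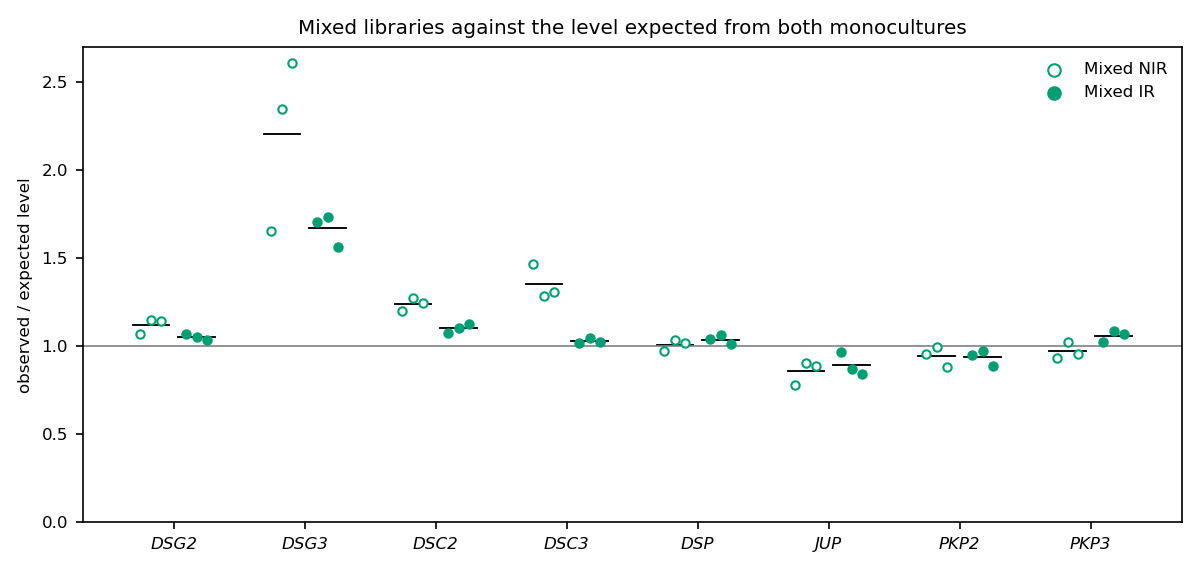
Level of 8 desmosome genes in each mixed library divided by the level expected from the monocultures of the same treatment at the estimated share of MCF10A RNA (vertical axis, from 0); the line at 1 marks equality, open points Mixed NIR, filled points Mixed IR and short bars the means. DSG3 means lie at 2.20 and 1.67, and DSC3 at 1.35 in NIR and 1.03 in IR.

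For Mixed IR against HCT116 IR, 1 of 8 members tested was higher in the mixture and none lower, where 8.56% of 17137 genes were called, 5.08% higher and 3.48% lower. That member was DSG3 (log2 difference 3.45, SE 0.29, edgeR adjusted p = 5.4e-10). JUP was at 347, 313 and 303 CPM in Mixed IR against 392, 336 and 355 CPM in HCT116 IR, with overlap between the groups (log2 difference -0.18, edgeR adjusted p = 0.051). Residuals of libraries with the same replicate number correlated at 0.114 to 0.269 here, and those of different numbers at -0.251 to 0.272 over all groups. No label states a shared batch. With replicate number as a block the log2 difference of JUP was -0.18 (edgeR adjusted p = 0.00040), and 2220 genes were called in place of 1467. DSC2 and DSC3 had differences of 0.13 (interval 0.01 to 0.26) and 0.06 (interval -0.06 to 0.18), with edgeR adjusted p of 0.22 and 0.67.

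Irradiation of the mixed culture was followed by higher DSG3, DSC3 and JUP and lower DSG2, DSC2 and PKP2, 3 of the 8 members tested in each direction, where 49.4% of 16906 genes were called, 24% higher and 25.4% lower. DSG3 rose 3.95-fold (log2 change 1.98, SE 0.23, edgeR adjusted p = 2.8e-07) while the MCF10A share went from 0.427% to 1.19%, and the part of that share was not tested. DSC3 went from 52.2, 45.6 and 46.3 CPM to 67.2, 68.6 and 67.5 CPM (0.47, edgeR adjusted p = 8.1e-06), and DSC2 from 112, 119 and 116 CPM to 75.7, 77.8 and 79.2 CPM (-0.60, edgeR adjusted p = 3.2e-08). The ratio of DSC3 to DSC2 counts went from 0.416 ± 0.044 to 0.874 ± 0.019 (SD, n = 3 each), with no overlap.

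JUP went from 217, 251 and 247 CPM to 347, 313 and 303 CPM in the mixed culture (0.40, edgeR adjusted p = 3.0e-05). DSG2 fell by 0.21 and PKP2 by 0.33 on the log2 scale (edgeR adjusted p = 0.0024 and 0.00096). DSP (-0.11, edgeR adjusted p = 0.075) and PKP3 (-0.12, edgeR adjusted p = 0.15) did not pass. DSP passed without Mixed NIR replicate 1 (edgeR adjusted p = 0.031) and without a filter (edgeR adjusted p = 0.048). PKP1 had 0, 0 and 4 counts in Mixed NIR and 4, 16 and 16 in Mixed IR, an 8.15-fold ratio with a counting interval of 2.92 to 31.5 (1.95 to 72.4 with counts halved), and the groups touched at 4 counts. It did not pass the filter, and without it the edgeR adjusted p was 0.031.

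None of the 9 members tested differed in response between the mixed culture and HCT116 (0.83% of 18072 genes called in edgeR), and 3 of them, DSG3, DSC2 and DSC3, had an unadjusted p under 0.05. DSC3 came nearest, with a difference of -0.41 (SE 0.11, edgeR adjusted p = 0.084); DESeq2 called it (adjusted p = 0.023), as did edgeR without a filter (adjusted p = 0.023). This comparison shares its HCT116 libraries with the HCT116 response and its mixed libraries with the mixed response.

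The order of the 6 groups by level differed between members. For DSG3 it was MCF10A IR, MCF10A NIR, Mixed IR, Mixed NIR, HCT116 IR and HCT116 NIR, with no overlap between neighbours. For DSC2 it was Mixed NIR, HCT116 NIR, MCF10A IR, Mixed IR, HCT116 IR and MCF10A NIR, where Mixed IR and HCT116 IR overlapped. For DSC3 the MCF10A groups came first and overlapped each other, and HCT116 NIR came last at 30.2 to 38.0 CPM. For JUP the order was HCT116 IR, Mixed IR, HCT116 NIR, Mixed NIR, MCF10A IR and MCF10A NIR, where HCT116 IR and Mixed IR overlapped.

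The genes whose log2 CPM followed DSG3 most closely over the 18 libraries were KRT17, ROS1 and FLRT2 (Pearson r = 0.996, 0.996 and 0.995). For DSG2 they were TLN1, SPTBN1 and PLS3 (0.983, 0.982 and 0.981). These values describe 18 libraries that fall by line, and carry no test.

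Genes that work beside the members were read from lists. Beside their counts stand the shares of all genes called after irradiation. These were 55.4% in MCF10A, 26.2% higher and 29.2% lower, and 52.5% in HCT116, 25.3% higher and 27.2% lower. Of 7 other desmosome-associated genes, 4 were tested in MCF10A, with 1 higher and 2 lower after irradiation, and 5 in HCT116, with 1 higher and 1 lower. PERP, a membrane protein of desmosomes, rose in MCF10A, 413 ± 5.1 to 639 ± 14 CPM (log2 change 0.61, edgeR adjusted p = 9.5e-14), and in HCT116, 276 ± 18 to 373 ± 7.8 CPM (0.44, edgeR adjusted p = 1.1e-06). Its rise differed between the lines by -0.25 (edgeR adjusted p = 0.0050). PKP4, an armadillo relative of the plakophilins, fell by 0.48 in MCF10A and by 0.42 in HCT116 on the log2 scale.

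Among 14 regulators and sheddases, 6 rose and 3 fell of 12 tested in MCF10A, and 2 rose and 3 fell of 11 tested in HCT116. The shares of all genes called were 55.4% and 52.5%. TP63 went from 109 ± 5.6 to 131 ± 1.4 CPM in MCF10A (log2 change 0.24, edgeR adjusted p = 0.00014). KLF4, an epithelial differentiation factor, rose in MCF10A, from 3.50 to 6.70 CPM (0.91), and fell in HCT116, where it went from 30.7 to 16.0 CPM (-0.93), a difference between the lines of -1.92 (edgeR adjusted p = 3.9e-08). PRKCA, the kinase known for loosening desmosomes, went from 70.1 to 33.9 CPM in HCT116, a log2 change of -1.04.

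In the junction lists the counts stand beside 26.2% of all genes higher and 29.2% lower in MCF10A, and 25.3% and 27.2% in HCT116. Of 10 adherens junction genes, 6 rose and none fell in MCF10A, and 6 rose and 4 fell in HCT116. CDH1, which encodes E-cadherin, went from 40.4 to 123 CPM in MCF10A (1.58, edgeR adjusted p = 1.9e-18) and from 155 to 216 CPM in HCT116. NECTIN4 rose in both lines, by 1.25 and 1.68. Of 10 tight junction genes, 5 of 9 tested rose and none fell in MCF10A, and 5 of 10 rose and 2 fell in HCT116. CLDN1, a claudin, rose in MCF10A, from 16.7 to 73.2 CPM (2.12, edgeR adjusted p = 5.8e-19). In HCT116 it had 48 counts over the NIR libraries and 10 over the IR libraries, 0.504 and 0.0936 CPM (-2.30, edgeR adjusted p = 0.014). CLDN1 passed the filter on low counts there only through HCT116 NIR. That call, counted in the 2 that fell, is therefore not separate from the filter.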

How the data were processed

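Stranded poly(A) libraries were sequenced as paired reads. The submitters' processing notes name fastp, STAR, featureCounts and GRCh38, without versions. The authors deposited raw counts per gene symbol, 1 table per library, with no normalization; the annotation and whether mates were counted one by one are not given in the sources used here. Of the counts from 1 to 10, 68.3% were even, so fits with counts halved were added to the alternatives. Counting intervals are exact at the 95% level and cover counting error only.

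The members and gene lists were chosen with earlier results of these data known. All 10 members are named; from each list at most the 2 called genes with the largest change per comparison, and PERP and TP63 always. PKP4 was named after its values were seen. A check of the stated genotype of HCT116 is not reported here.

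Each comparison was fitted on the whole table of its groups with edgeR 4.0.16 (R 4.3.3): TMM, filterByExpr, 2-sided quasi-likelihood test, Benjamini-Hochberg over all genes tested, called under 0.05. p-values measure the spread between these libraries. Replicate numbers were checked by residual correlation. For Mixed IR against HCT116 IR all 3 same-number pairs lay at 0.114 to 0.269, which met the rule for a pairing from the data (every pair over 0.1); nothing in the labels states a shared batch. Likeness is Pearson's r of log2(CPM + 0.5) among genes at a mean of 1 CPM or more. Lengths come from GENCODE and promoters from RefSeq, which had windows for 8 members. Alternatives were other scalings, no filter, DESeq2 1.42.0, halved counts, 1 fit over 18 libraries, a replicate block and leaving out each library.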

Additional observations from a re-analysis of the deposited data

Results flagged for a closer look

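For 7 members the response to irradiation differed between HCT116 and MCF10A by an interaction term in edgeR (adjusted p under 0.05), with 37.3% of all genes tested called. As HCT116 minus MCF10A on the log2 scale the differences were 3.33 for DSG3, 0.87 for DSC3, -1.18 for DSC2, -0.58 for JUP, -0.39 for PKP2, -0.34 for DSP and -0.29 for DSG2. All 7 kept their direction and their call in each of the alternatives run. DSG3 entered this test through its MCF10A libraries, as it did not pass the filter on low counts in the HCT116 fit. For DSC2 every irradiated MCF10A library lay above, and every irradiated HCT116 library below, the non-irradiated libraries of its line, and the value of DSG3 ranged from 2.75 to 5.90 over the alternatives.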

How the results depend on the processing

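Over all comparisons, 1066 member values stayed on their side of the threshold (in the same direction where called), 19 passed it only in an alternative, 6 lost it, and no called value changed sign. All values of the response difference between the lines (170) and of the comparisons of the lines without (116) and with irradiation (104) stayed on their side. In Mixed NIR against HCT116 NIR, 335 genes were called, against 671 without a filter, 576 with DESeq2, 768 with 1 fit over all libraries and 145 to 313 when each library was left out. The members called were 1 to 3 with a library left out and 4 without a filter and with a replicate block (JUP added) and with DESeq2 and 1 fit over all libraries (DSG2 added), against 3. In Mixed IR against HCT116 IR, 866 to 1312 genes were called with a library left out, against 1467, and 1 to 2 members; 2 members were called with RLE factors, with upper-quartile factors, without a filter and with counts halved, JUP being the second. JUP also passed without HCT116 IR replicate 2 (adjusted p = 0.026) and without Mixed IR replicate 1 (adjusted p = 0.0068). For the Response difference Mixed minus HCT116, 150 genes were called, against 336 without a filter, 327 with DESeq2 and 64 to 197 with a library left out; 1 member, DSC3, was called without a filter, with DESeq2 and with 1 fit over all libraries, and 0 to 1 with a library left out (without HCT116 NIR replicate 3, adjusted p = 0.045). The share of MCF10A RNA fell to 0.267% in Mixed NIR and 0.992% in Mixed IR with stricter specificity. The causes were not tested.

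With a replicate block, 716 genes were called in Mixed NIR against HCT116 NIR, including JUP (adjusted p = 0.028), and 2220 in Mixed IR against HCT116 IR with 2 members; the block changed no other call of a member. Over all pairs of groups, libraries of the same number had residual correlations of -0.240 to 0.269 and those of different numbers -0.251 to 0.272, and 3 of 18 libraries correlated best with their own number. DSG1, PKP1 and, in HCT116, DSG3 had so few counts that depth limits their comparisons.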
